A study of Mus musculus with 2 samples.

Results

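The Zfp genes are the mouse genes named for a zinc finger, a short protein fold held around a zinc ion by cysteine and histidine residues. They were taken here as the protein-coding genes whose symbol is Zfp followed by a number, with or without a further ending, and with at least 20 long reads summed over every transcript model in 2 libraries. Of 394 such genes in the annotation, 132 reached that minimum, among 9062 annotated genes of any kind that did so. A further 226 had 1 to 19 reads and 36 had no read. The members were chosen by their read counts summed over both libraries, so their levels are given as a description and carry no test. Just inside the limit, 4 genes had 20 reads, among them Zfp276 with 6 reads in replicate 1 and 14 in replicate 2. Just outside it, 6 genes had 19 reads, among them Zfp60 with 8 reads in replicate 1 and 11 in replicate 2.

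The RNA came from tissue labelled as a layer of hippocampus of female B6CASTF1/J mice, the hybrid of a C57BL/6J and a CAST/EiJ parent, at 2 months of age. There was 1 group, with no treatment or engineered allele in its labels, and 2 µg of RNA entered each of its 2 libraries. The labels number the libraries as biological replicates 1 and 2 but give the same donor record and the same cDNA label to both. They do not say which animals each library came from, so the spread between the libraries may be technical. In long-read sequencing a read can cover a whole cDNA copy of a transcript. Each read was therefore counted once whatever the transcript's length, and a level in CPM, the count per 1000000 reads, is not scaled by length. Whether each read stands for a separate molecule is not known.

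After removal of spike-in reads, replicate 1 held 826596 reads and replicate 2 held 745492, so that 1 read was worth 1.21 and 1.34 CPM. A count of 0 allowed up to 3.63 CPM in replicate 1 and 4.02 CPM in replicate 2. All 11 neuronal and hippocampal markers examined were detected in both libraries. Hpca, a calcium sensor abundant in hippocampal neurons, led them at 2191 ± 38.9 CPM (SD, n = 2). Of 5 markers of choroid plexus, a tissue of the neighbouring ventricle, Ttr had 271 reads in replicate 1 and 131 in replicate 2. Aqp1 and Otx2 had none. Summed over those 5 markers the level in replicate 1 was 339 CPM, against 185 CPM in replicate 2, and its part in the differences between libraries below was not tested. Markers of astrocytes, oligodendrocytes, microglia, endothelium and blood had reads in both libraries. In bulk tissue, fewer cells of a type and less RNA per cell cannot be told apart.

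Most zinc finger proteins of this kind carry C2H2 fingers, in which a pair of cysteines and a pair of histidines hold the zinc, often in long arrays that read DNA sequence. Many also carry a KRAB box, which recruits the corepressor Trim28 and through it histone methylation and heterochromatin proteins, and many of these repress transposable elements. A few have CCCH fingers. Some of these proteins bind AU-rich elements of mRNAs through the fingers and recruit the CCR4-NOT deadenylase, so that the mRNA decays. The stretches below code for the earliest finger that matched the motif in the member of each kind with the highest level over all models and in Zfp771, whose isoforms are described further on. They are read from GENCODE M21 transcripts on mm10, 5′ to 3′, and capitals mark the codons of the cysteines and histidines that hold the zinc.

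Zfp706, C2H2, chr15:37001896-37003700, minus strand, split by an intron: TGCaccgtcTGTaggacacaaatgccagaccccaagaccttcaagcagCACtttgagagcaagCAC
Zfp771, C2H2, chr7:127253856-127253918, plus strand: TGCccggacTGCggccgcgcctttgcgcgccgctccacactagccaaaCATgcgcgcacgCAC
Zfp746, C2H2 in a KRAB gene, chr6:48064174-48064236, minus strand: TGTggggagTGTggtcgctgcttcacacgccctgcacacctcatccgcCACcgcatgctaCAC
Zfp36l2, CCCH, chr17:84186668-84186727, minus strand: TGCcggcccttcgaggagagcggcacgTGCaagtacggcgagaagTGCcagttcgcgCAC

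The C2H2 stretches share the spacing of their capital codons except that Zfp706 has a longer gap between its histidines, and the CCCH stretch is built on another spacing. Motifs were counted in the proteins that the annotated transcripts code for, and a gene was placed by the motifs found in any of its transcripts. Of the 132 members, 53 had KRAB and C2H2 motifs, 74 had C2H2 without KRAB, 2 had CCCH and 3 had neither motif. The 127 members with a C2H2 match had 1 to 36 matches each, the most in Zfp142, and the median over all 132 members was 9. Zfp142 was named after its values were seen. In 88 of those 127, or 69.3%, all the matches lay in 1 coding exon. That held for all 53 KRAB genes and for 35 of the 74 C2H2 genes without KRAB.

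Zfp genes were present at low levels, and a pair of them stood above the rest. The members had a median of 23.3 CPM, against 44.1 CPM in the other 8641 protein-coding genes with at least 20 reads. The median was 23.0 CPM in replicate 1 and 23.5 CPM in replicate 2. Among the members 76 of 132, or 57.6%, were under 25 CPM, against 26.4% of the other protein-coding genes. At 100 CPM or more were 4 members, or 3.03%, against 21.9% of the other genes. Zfp706 and Zfp365 together held 1335 of the members' 7101 reads, or 18.8%.

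Zfp706, a small protein of 76 residues found in mouse embryonic stem cells to promote exit from self-renewal, had the highest level. It had 407 reads in replicate 1 and 323 in replicate 2, or 492 and 433 CPM. Zfp365, also known as DBZ and a binding partner of the neurodevelopmental protein Disc1, had 295 reads in replicate 1 and 310 in replicate 2, or 357 and 416 CPM. The lower library of Zfp706 was above the higher library of Zfp365. Both of these are replicate 2, where the order rests on 323 against 310 reads and was not tested. The third, Zfp523, the counterpart of human ZNF76, had 121 reads in replicate 1 and 113 in replicate 2, or 146 and 152 CPM. Zfp523 was therefore well below both of the higher genes in each library.

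From the fourth place on, neighbouring genes were mostly within the spread of the libraries. Zfp106, an RNA-binding protein that mouse motor neurons need for survival, averaged 101 ± 27.2 CPM (SD, n = 2), with 68 reads in replicate 1 and 90 in replicate 2. Its place leans on reads that did not follow the gene's splicing, 36 in replicate 1 and 47 in replicate 2. Zfp771 averaged 79.3 ± 13.0 CPM and Zfp207, a microtubule-binding partner of Bub3 also called BuGZ, 77.9 ± 9.61 CPM. Zfp148, a factor that binds GC-rich promoters, averaged 64.6 ± 9.21 CPM and Zfp692 averaged 64.0 ± 10.1 CPM. Zfp746, also called Paris, a parkin substrate that represses the gene for PGC-1α, averaged 61.2 ± 12.6 CPM, the highest value of a KRAB gene. That place rests on a model 1 base long, which held 29 of its 58 reads in replicate 1 and 22 of 39 in replicate 2. Without such models, an alternative chosen after seeing the data, Zfp746 averaged 28.9 ± 8.68 CPM and was below Zfp251, Zfp445 and Zfp68. Zfp512 averaged 60.6 ± 5.32 CPM and Zfp651 58.9 ± 11.5 CPM. Zfp574 and Zfp260 both averaged 50.5 CPM, with SDs of 10.7 and 6.38. Zfp423, a developmental factor of cerebellum and fat, averaged 49.7 ± 3.63 CPM, with 39 reads in each library. None of its reads matched a whole annotated chain of introns. Of them, 66.7% matched part of a chain, 20.5% did not follow the gene's splicing and 12.8% used an unannotated splice site. Zfp384, also called Nmp4, averaged 47.1 ± 1.64 CPM. Below these 15 genes, the remaining members ran down to 12.5 CPM.

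**Figure D1:**
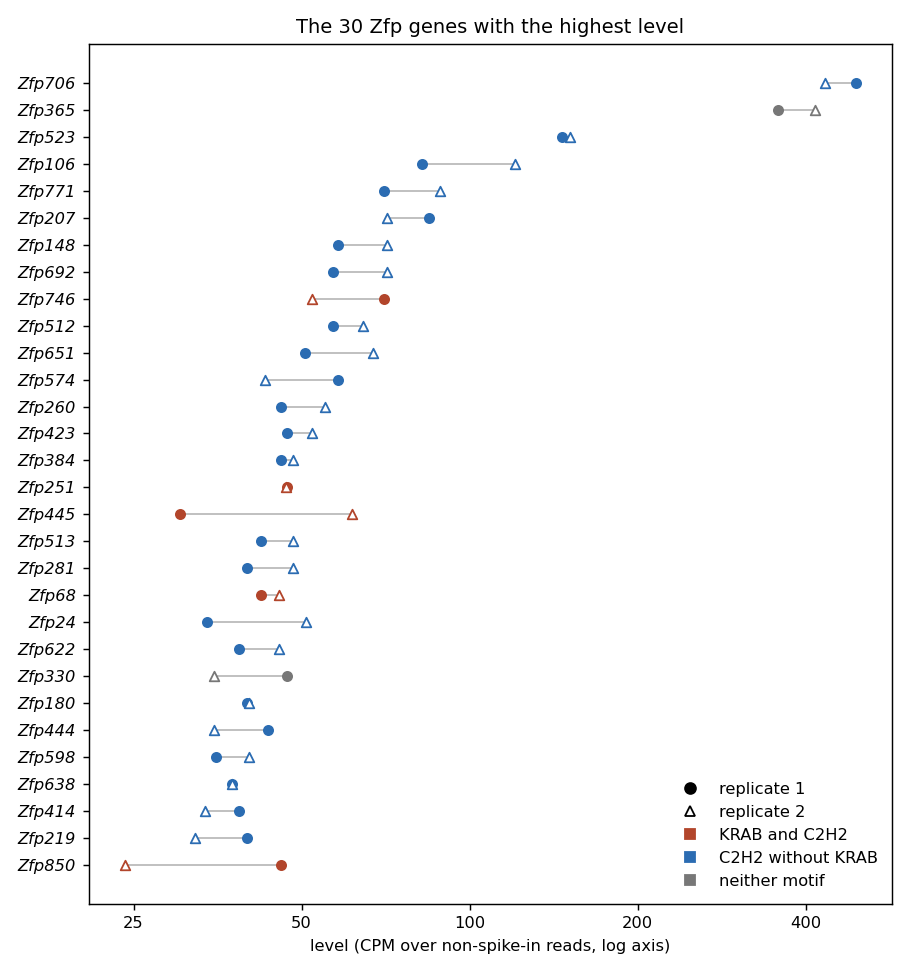
Level of the 30 highest Zfp genes in CPM over non-spike-in reads, on a log axis, with a filled circle for replicate 1, an open triangle for replicate 2 and the colour giving the motifs of the encoded proteins. Zfp706 and Zfp365 lie above 350 CPM in both libraries, and Zfp445 and Zfp850 are among the genes whose libraries lie farthest apart.

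Genes with a KRAB box were lower and more often missing than the other C2H2 genes. Of 239 annotated KRAB and C2H2 genes 53 were members, or 22.2%, and 26 had no read. Of 139 C2H2 genes without KRAB 74 were members, or 53.2%, and 5 had no read. Over all annotated genes of each kind, the median was 8 reads for KRAB genes and 21 reads for C2H2 genes without KRAB, both libraries together. Among members, KRAB genes had a median of 19.2 CPM and a maximum of 61.2 CPM, or 47.1 CPM without models 1 base long, with 19.4 CPM the median in replicate 1 and 20.1 in replicate 2. The C2H2 members without KRAB had a median of 28.4 CPM and a maximum of 463 CPM, with 27.8 CPM the median in replicate 1 and 28.2 in replicate 2. The 8 members with at least 100 reads included no KRAB gene. These are descriptions of genes that had to reach 20 reads, and the difference was not tested.

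The leading KRAB genes beside Zfp746 were Zfp251, with 39 reads in replicate 1 and 35 in replicate 2, Zfp445, with 25 and 46, and Zfp68, with 35 and 34. Zfp445 is known to help keep imprints in the mouse embryo. KRAB members had more fingers, with a median of 12 and a range of 3 to 21, against a median of 7 and a range of 1 to 36 in the C2H2 members without KRAB. Their annotated relatives lay close by in the genome: 37 of 53 KRAB members, or 69.8%, had another Zfp gene within 100 kb, against 21 of 74, or 28.4%, of the C2H2 members without KRAB. Clustered genes can have near-identical copies. In 10 members over 10% of the 31-base words of their transcripts also occurred in transcripts of other genes, which need not be Zfp genes or lie nearby. Zfp932 led at 48.3%, followed by Zfp617 at 47.7% and Zfp931 at 39.8%. How far such sharing affects the assignment of long reads, and so the counts of these genes, was not measured. The median over members was 0.665%.

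**Figure D2:**
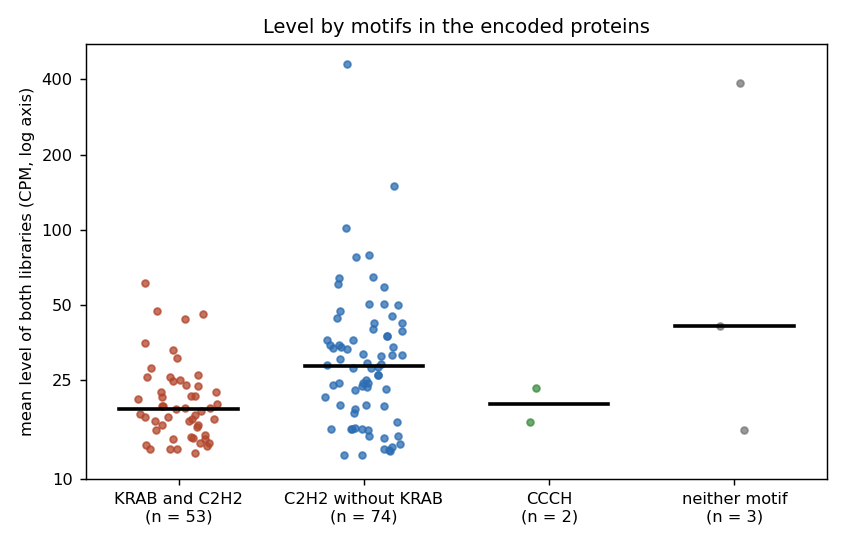
Mean level of both libraries of each Zfp member in CPM, on a log axis, by the motifs of its encoded proteins, with a point per gene and a bar at the group median. The KRAB genes end at 61.2 CPM, the value of Zfp746, which is 28.9 CPM without models 1 base long, and then no KRAB gene lies at 50 CPM or more, against 11 of the C2H2 genes without KRAB.

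The CCCH members were the mRNA decay factors Zfp36l2 and Zfp36l1. Zfp36l2 had 25 reads in replicate 1 and 12 in replicate 2, or 30.2 and 16.1 CPM, and Zfp36l1 had 18 and 9 reads, or 21.8 and 12.1 CPM. Both were higher in replicate 1, though neither was called as different between libraries (exact binomial adjusted p = 0.718 for Zfp36l2 and 0.888 for Zfp36l1). The members with neither motif were Zfp365, the nucleolar protein Zfp330 with 39 reads in replicate 1 and 26 in replicate 2, and Zfp703, a corepressor gene amplified in human breast cancers, with 16 and 9 reads. These proteins may hold fingers of other spacing, which the patterns used would not find.

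The partners of these proteins were present too. All 20 genes of KRAB-dependent silencing that were listed had reads in each library, and their median level was 31.4 CPM. Trim28, which binds the KRAB box, led at 260 ± 24.4 CPM, followed by Chd3 at 198 ± 23.4 CPM and Mbd3 at 159 ± 2.80 CPM, both of the NuRD remodelling complex (SD, n = 2). The histone methyltransferase gene Setdb1 had 37 reads in replicate 1 and 31 in replicate 2. Uhrf1, which binds newly replicated DNA, had 1 read in each. All 15 listed genes of the CCR4-NOT complex and its Tob and Btg partners also had reads in each library, and their median level was 37.5 CPM. The deadenylase subunit Cnot7 led at 97.5 ± 6.22 CPM, followed by its relative Cnot8 at 87.4 ± 7.28 CPM. No gene of either list was called as different between libraries, of 17 and 13 tested. Other zinc finger families had medians of 25.4 CPM in 19 Zbtb genes, 17.0 CPM in 5 Zkscan and Zscan genes and 36.3 CPM in 8 Klf genes that reached 20 reads.

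No Zfp gene was called as different between the libraries. The split of each gene's reads was compared with the ratio of the library totals by a two-sided exact binomial test over all 9062 genes, and a gene was called where the p adjusted by Benjamini and Hochberg's method was below 0.05 and the levels were 2-fold or more apart. Of the 132 members 0 were called, against 28 of all genes tested, or 0.309%, of which 13, or 0.143%, were higher in replicate 1 and 15, or 0.166%, in replicate 2. An unadjusted p under 0.05 was found for 10 members, or 7.58%, against 7.42% of all genes tested. The largest departure by p was Zfp445, with 25 reads in replicate 1 and 46 in replicate 2 and a log2 ratio of replicate 1 over replicate 2 of -1.03 (exact binomial p = 0.00406, adjusted p = 0.261). The log2 ratios of the members ran from -1.47 in Zfp30, with 6 reads in replicate 1 and 15 in replicate 2, to 1.44 in Zfp346, with 24 and 8, a pair named after its values were seen. Even these did not pass at such counts (exact binomial adjusted p = 0.583 for Zfp30 and 0.459 for Zfp346). The test compares libraries and not conditions.

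Fewer of the Zfp reads followed an annotated transcript exactly than those of other protein-coding genes, and more joined splice sites in unannotated ways. The deposited models fall into classes. Known models match an annotated chain of introns, NIC models combine annotated splice sites in an unannotated way and NNC models hold an unannotated splice site, and these 3 are full-splice models. ISM models match only part of an annotated chain, and genomic models lie in a gene without following its splicing. Known models took 57.1 ± 0.615% of members' reads, against 66.4 ± 0.469% in the other protein-coding genes (SD, n = 2). NIC models took 12.3 ± 0.671% of members' reads, against 7.46 ± 0.0264%, and NNC models 6.91 ± 0.201%, against 4.04 ± 0.112%. The shares of members were 11.8% and 12.7% for NIC in replicates 1 and 2, each with an exact 95% Clopper-Pearson interval between 10.8% and 13.9%. Both libraries of the members lay above both libraries of the other genes, in which NIC took 7.48% and 7.44%. The intervals are for pooled reads and leave out the spread among genes. Gene by gene, the NIC share had quartiles of 0% and 22.7% in members, against 0% and 12.5% in the other genes. No NIC read was found in 28.8% of members, against 27.5% of the other genes. The difference between the groups of genes was not tested.

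Full-splice reads together took 76.3 ± 0.257% of members' reads, against 77.9 ± 0.384%. ISM models took 11.1 ± 0.672%, against 12.6 ± 0.516%. The 3′ part of the chain was the part retained in 71.7% of the members' 788 ISM reads, against 69.1% in the other genes. The members' pooled shares lean on the highest pair: without Zfp706 and Zfp365, whose reads were nearly all Known, the Known share of the remaining 130 members was 48.9 ± 0.332%, and the NIC share was 14.5% in replicate 1 and 15.5% in replicate 2. Gene by gene, the median share was 52.3% Known, 6.27% NIC and 6.06% NNC in members, against 66.7%, 3.68% and 3.45% in the other genes. The KRAB members had 15.7 ± 0.418% NIC and 12.3 ± 0.370% NNC reads, and the C2H2 members without KRAB 12.6 ± 0.880% and 5.68 ± 0.128%. The 5 Zkscan and Zscan genes, with 150 reads in all, had 17.1 ± 5.93% NIC, the 19 Zbtb genes 9.24 ± 0.114% and the 8 Klf genes 1.03 ± 0.104%. A low pooled Known share was not particular to Zfp genes. It was 51.9 ± 4.40% in the Zbtb genes, 57.0 ± 6.31% in the Zkscan and Zscan genes and 39.2 ± 3.51% in the Klf genes. Of the 875 reads of the Klf genes, 489 were of 1 gene. Gene by gene, the median Known share was 45% in the Zbtb genes, below that of members. It was 62.5% in the Zkscan and Zscan genes and 57.9% in the Klf genes, above that of members.

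**Figure D3:**
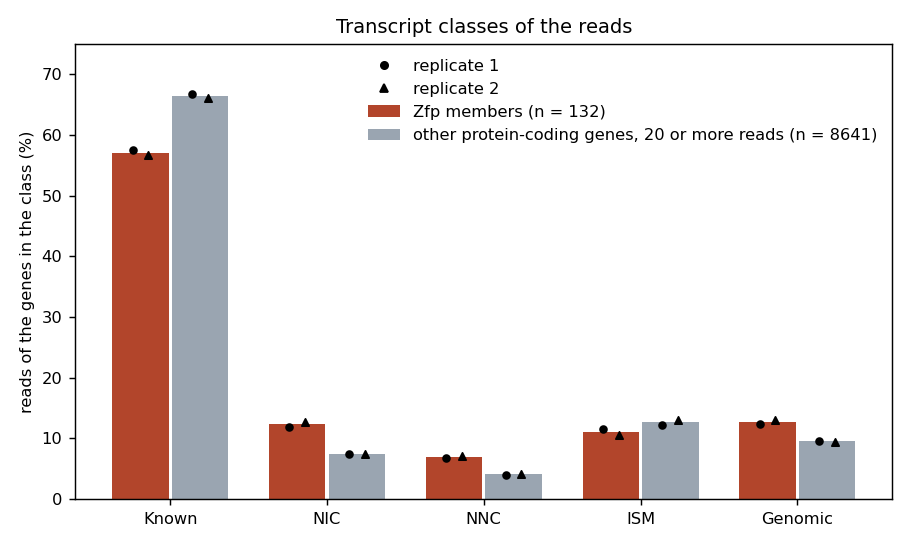
Share of reads in each deposited transcript class, in percent, for the 132 Zfp members and the other 8641 protein-coding genes with at least 20 reads, with bars at the mean of both libraries and a circle and a triangle for replicates 1 and 2. NIC, NNC and genomic bars are higher for Zfp members and the Known bar is lower, 57.1% against 66.4%.

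Genomic reads were more frequent in members than in the other protein-coding genes, and most were single-exon models inside annotated exons. They took 12.7 ± 0.415% of members' reads, against 9.48 ± 0.133% in the other protein-coding genes, with a median per gene of 9.09%, against 4.44%. This was not particular to Zfp genes, since the share was 24.5 ± 6.65% in the 19 Zbtb genes. It was 10.5 ± 0.919% in the 8 Klf genes and 6.07 ± 1.52% in the 5 Zkscan and Zscan genes. Of the members' 898 genomic reads, 73.7% were in models with at least 90% of their bases in annotated exons and 14.1% in models with at most 10% there, against 70.6% and 12.6%. More than 50% of reads were genomic in 10 members, or 7.58%, against 5.25% of the other genes. Among the 8 members with at least 100 reads, Zfp106 stood apart, with 36 genomic of 68 reads in replicate 1 and 47 of 90 in replicate 2, or 52.9% and 52.2%. All 83 lay inside exons at the 3′ end of the gene, which is on the minus strand, at chr2:120506820-120507968 in replicate 1. In the other 7 the share over both libraries was 10.5% in Zfp771, 7.32% in Zfp207, 3.96% in Zfp148, 3.15% in Zfp706, 3.14% in Zfp365, 1.71% in Zfp523 and 0% in Zfp692. For Zfp692, 0 of 47 reads in replicate 1 and 0 of 53 in replicate 2 allow shares of up to 6.38% and 5.66%.

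A few genes with high genomic shares were chosen after their values were seen. In Zfp850, a KRAB gene, 33 of 38 reads in replicate 1 and 13 of 18 in replicate 2 were genomic, all in an intron, at chr7:28010065-28010332 in replicate 1. Of the 56 reads of Zfp850, 1 was Known. In Zfp827, 24 of 32 genomic reads lay ahead of the gene's start, at chr8:79028083-79028437 in replicate 1. In Zfp746 the 1-base model described above lay at the gene's 3′ end, at chr6:48062395. In Zfp36l2, 11 of 25 reads in replicate 1 and 8 of 12 in replicate 2 were genomic, and in Zfp36l1 12 of 18 and 5 of 9, all inside exons.

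The genomic share differed between the libraries in 3 members. By a two-sided Fisher exact test over all 9062 genes, 313 were called at an adjusted p under 0.05, or 3.45%. In Zfp365 it was 1 of 295 reads in replicate 1 and 18 of 310 in replicate 2 (Fisher exact adjusted p = 0.00293), or 0.339% and 5.81%. Of the 18 reads in replicate 2, 17 belonged to a model at the 3′ end, chr10:67886103-67887064. In Zfp574 it was 13 of 48 reads in replicate 1 and 0 of 32 in replicate 2 (Fisher exact adjusted p = 0.0345), where 0 reads allow up to 9.38%. In Zfp956 it was 0 of 21 reads in replicate 1, which allows up to 14.3%, and 7 of 16 in replicate 2 (Fisher exact adjusted p = 0.0345). The direction therefore differed among the 3 genes, and 3 of 132 is near the background of 3.45%.

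Most reads of C2H2 genes were in models whose exons held all of the fingers. Fingers were looked for in the exons of each model, and how far each read ran was not examined. Of 6342 reads of the 127 members with a C2H2 match, 76.5 ± 0.226% were in models whose exons held every finger, 10.2 ± 0.629% held some and 13.4 ± 0.855% none (SD, n = 2). Known models held all fingers in 92.9 ± 0.500% of reads, NIC models in 88.5 ± 0.274% and NNC models in 82.1 ± 1.67%. ISM models held them all in 52.3 ± 0.139% and genomic models in 14.7 ± 0.763%. In KRAB genes the fingers lie in 1 exon, and only 3.63 ± 0.173% of reads were in models with some but not all fingers. That share was 12.8 ± 0.893% in the C2H2 genes without KRAB. Holding the exons is not the same as coding for the fingers, as the KRAB genes show.

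Of 898 Known reads in 52 KRAB genes, 78.0 ± 2.63% matched transcripts whose annotated coding sequence holds both KRAB and fingers (SD, n = 2). Fingers without KRAB were coded in 8.29 ± 1.52%, KRAB without a finger in 9.15 ± 0.634%, neither in 0.776 ± 0.104%, and 3.81 ± 0.579% matched transcripts with no coding sequence. The 74 reads with fingers and no KRAB came from 6 genes, and 41 of them were of Zfp655. In 25 of the 52 genes every Known read coded for both KRAB and fingers. In Zfp655, Zfp68 and Zfp251 the KRAB box is left out in different ways, and the exons that code for it are given with the bases aligned to the KRAB profile in capitals.

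Zfp655, chr5:145235737-145235863, plus strand, exon of Zfp655-206: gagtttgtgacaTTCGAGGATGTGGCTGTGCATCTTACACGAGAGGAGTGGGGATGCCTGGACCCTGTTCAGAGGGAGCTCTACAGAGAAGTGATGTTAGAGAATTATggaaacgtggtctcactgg
Zfp68, chr5:138612039-138612165, minus strand, exon of Zfp68-203: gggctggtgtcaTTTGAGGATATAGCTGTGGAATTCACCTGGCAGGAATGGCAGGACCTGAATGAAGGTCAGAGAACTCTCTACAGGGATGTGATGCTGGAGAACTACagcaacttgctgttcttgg
Zfp251, chr15:76870282-76870414, minus strand, exon of Zfp251-201: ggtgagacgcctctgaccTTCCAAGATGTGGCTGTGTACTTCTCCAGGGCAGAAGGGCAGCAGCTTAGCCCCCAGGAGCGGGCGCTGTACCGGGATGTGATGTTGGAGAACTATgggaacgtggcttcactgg

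In Zfp655, 41 of 43 Known reads, 21 in replicate 1 and 20 in replicate 2, matched Zfp655-202, which skips the exon shown and codes for 6 fingers and no KRAB box. The annotation holds no Zfp655 transcript that codes for both, and 1 read matched Zfp655-206, which has the KRAB exon and ends before the fingers. In Zfp68, 16 of 66 Known reads, 7 in replicate 1 and 9 in replicate 2, matched Zfp68-202. That transcript keeps the exon shown but lacks the 96-base exon chr5:138616470-138616565, which holds the start codon of Zfp68-203, and its annotated coding sequence begins downstream of most of the KRAB bases. It codes for 568 residues, against 606 for Zfp68-203 and for Zfp68-201, and both forms hold 9 fingers. In Zfp251, 11 of 52 Known reads, 4 in replicate 1 and 7 in replicate 2, matched Zfp251-203, which skips the exon shown and has no annotated coding sequence. Both libraries had reads of the KRAB-less form in each of these genes.

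KRAB without fingers came from 12 genes and 82 reads, and for 38 of those reads the transcript holds finger exons that its annotated reading frame does not reach. In Zfp931, 18 of 19 Known reads, 8 in replicate 1 and 10 in replicate 2, matched Zfp931-201, which codes for 64 residues and ends before the finger exon. In Zfp938, 13 of 20 Known reads, 7 in replicate 1 and 6 in replicate 2, matched Zfp938-202, annotated as a target of nonsense-mediated decay. In Zfp90, 13 of 14 Known reads coded for KRAB without a finger, 7 in Zfp90-203, annotated as protein coding, and 6 in Zfp90-206, a decay target. Zfp931 shares 39.8% of its words with other genes, as given above. Over all members, 96.6 ± 0.511% of Known reads matched transcripts annotated as protein coding, against 97.0% of those of the other protein-coding genes, and 1.11 ± 0.0415% matched decay targets, against 0.477%. These genes and those of the paragraph before were chosen after their values were seen.

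**Figure D4:**
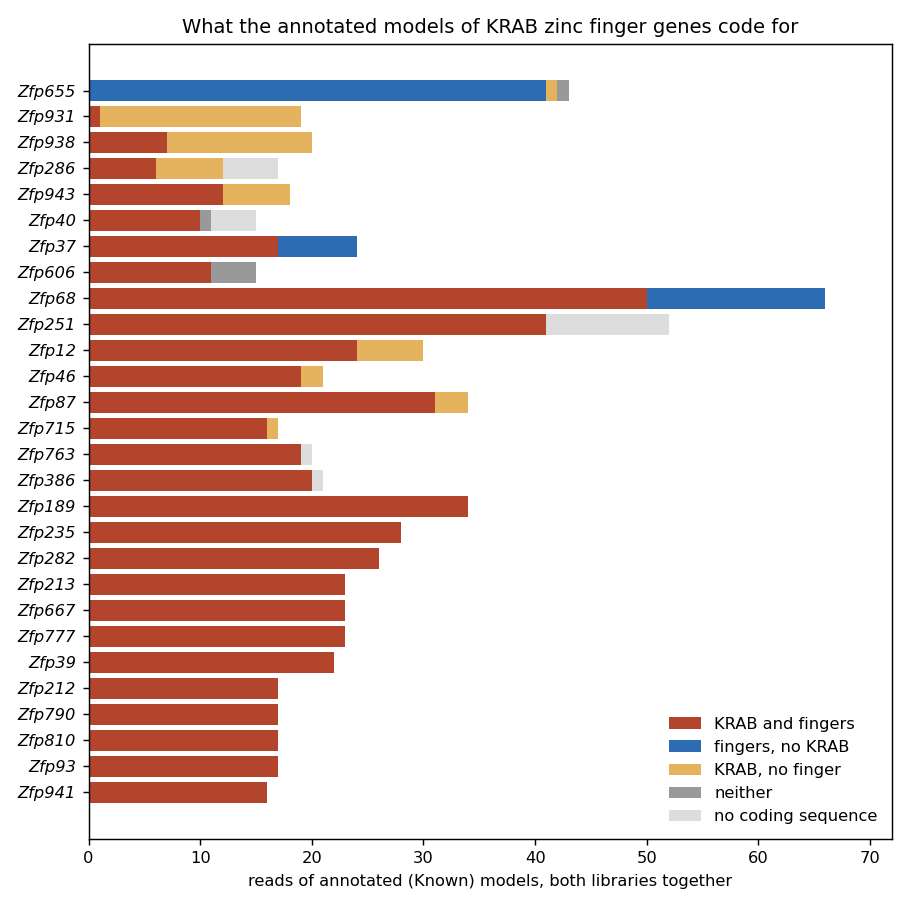
Reads of annotated models, both libraries together, in the 28 KRAB zinc finger genes with at least 15 such reads, with the colour giving what the annotated coding sequence of the model holds. In 12 of the 28 genes the bar is KRAB and fingers throughout and the other 16 hold reads of another kind, among which Zfp655 is nearly all fingers without KRAB and Zfp931 is nearly all KRAB without fingers.

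Isoforms could be compared in 24 members, those in which both libraries held 20 or more full-splice reads, where a shared chain of introns defines an isoform. The dominant isoform took a median of 67.7% of full-splice reads, against 83.9% in 4714 other protein-coding genes. Genes with more reads allow finer shares, so the same was taken at 40 to 200 full-splice reads, where the median was 64.9% in 22 members, against 81.2% in 3665 other genes. It took 90% or more in 4 members, or 16.7%, against 37.5% of the other genes, and under 50% in 7, or 29.2%, against 15.1%. More than 1 isoform with at least 10% in each library was found in 10 members, or 41.7%, against 30.3%. These counts set 24 genes beside the rest and carry no test.

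At the uniform end were Zfp706-201, with 389 of 391 full-splice reads in replicate 1 and 309 of 312 in replicate 2, and Zfp365-201, with 266 of 269 and 272 of 281. Zfp622-201, of a gene whose product helps mature the large ribosomal subunit, had 29 of 30 reads in replicate 1 and 32 of 32 in replicate 2, and Zfp260-201 26 of 29 and 24 of 26. At the other end, Zfp692 had 43 chains among 69 reads and Zfp384 30 chains among 55. The dominant chain of Zfp692 held 6 of 34 reads in replicate 1 and 3 of 35 in replicate 2, and that of Zfp384 3 of 28 and 4 of 27. In Zfp692 that chain led in replicate 1 only: the annotated Zfp692-201 and another NIC chain each held 3 reads in replicate 1 and 5 in replicate 2. In Zfp384 the next chain, the annotated Zfp384-211, held 3 reads in each library, so the order of these chains rests on single reads. Zfp384 shares 11.3% of its words with other genes. Both of these chains, and that of Zfp638, a DNA-binding protein that silences unintegrated retroviral DNA in human cells, were NIC chains not in the annotation. The Zfp638 chain held 11 of 25 reads in replicate 1 and 7 of 23 in replicate 2. No member was called as different between libraries in its dominant share (Fisher exact test, 4526 genes tested), against 10 of all genes, or 0.221%, and no member had an unadjusted p under 0.05. The smallest unadjusted p was 0.0734, in Zfp513 (Fisher exact test).

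**Figure D5:**
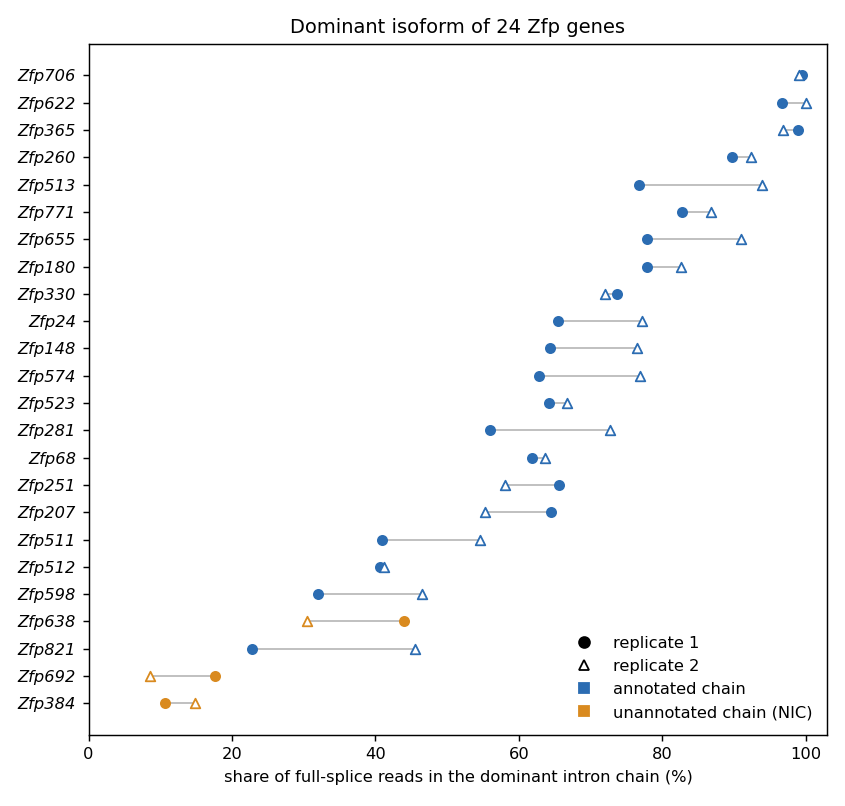
Share of full-splice reads in the dominant intron chain of the 24 Zfp genes where both libraries held 20 or more such reads, in percent, with a filled circle for replicate 1, an open triangle for replicate 2 and orange for chains that are not in the annotation. Zfp706, Zfp622 and Zfp365 lie above 95% in both libraries, and Zfp692 and Zfp384 lie below 20%.

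The isoforms differed by exons and splice sites whose lengths are known exactly. Some of the coding exons that differ between chains are shown in full in lower case, from GENCODE M21 on mm10, with no base marked.

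Zfp207, 93 bases, chr11:80393084-80393176, plus strand: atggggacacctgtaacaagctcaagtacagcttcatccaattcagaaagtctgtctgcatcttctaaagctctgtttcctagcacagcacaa
Zfp207, 48 bases, chr11:80389774-80389821, plus strand: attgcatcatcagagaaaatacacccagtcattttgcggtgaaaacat
Zfp512, 59 bases, chr5:31453155-31453213, plus strand: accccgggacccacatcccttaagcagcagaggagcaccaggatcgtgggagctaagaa
Zfp617, 61 bases, chr8:71929138-71929198, plus strand: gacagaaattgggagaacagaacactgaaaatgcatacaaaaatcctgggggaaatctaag
Zfp638, 69 bases, chr6:83956694-83956762, plus strand: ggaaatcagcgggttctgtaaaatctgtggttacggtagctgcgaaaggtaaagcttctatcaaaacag
Zfp638, 84 bases, chr6:83957509-83957592, plus strand: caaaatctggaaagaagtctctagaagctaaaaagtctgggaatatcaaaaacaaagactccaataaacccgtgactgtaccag

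In Zfp207 the dominant Zfp207-202 held 38 of 59 reads in replicate 1 and 26 of 47 in replicate 2. Zfp207-201, which skips the 93-base exon, had 3 and 5 reads, and Zfp207-206, which skips the 48-base exon, had 4 and 2. Both lengths are multiples of 3, and the 3 proteins have 495, 464 and 479 residues with the same 2 fingers. In Zfp512, Zfp512-201 held 13 of 32 reads in replicate 1 and 14 of 34 in replicate 2. An unannotated chain that skips the 59-base exon held 9 and 13, or 28.1% and 38.2%. The length of that exon is not a multiple of 3.

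In Zfp617, a KRAB gene, the chain that skips the 61-base exon had 7 of 9 full-splice reads in replicate 1 and 6 of 12 in replicate 2. The annotated Zfp617-201, which includes it, had 2 and 3, and Zfp617 shares 47.7% of its words with other genes. In Zfp638 the dominant chain lacked both exons shown, each a multiple of 3 in length and both present in the nearest annotated transcript, Zfp638-220. It also used another donor ahead of the start codon. In Zfp692 the chain with the most reads kept a 288-base intron of Zfp692-201, chr11:58309666-58309953, within the coding region. In Zfp384 it carried an exon between chr6:125031670 and 125031854 that Zfp384-201 lacks.

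Of the other recurring unannotated chains, 3 had a shifted splice site and 1 had a further intron. Zfp771-201 held 43 of 52 reads in replicate 1 and 46 of 53 in replicate 2. A chain with its acceptor 13 bases upstream, ahead of the start codon, held 7 in each library. In Zfp523, Zfp523-202 held 61 of 95 reads in replicate 1 and 66 of 99 in replicate 2, and a chain with an acceptor 23 bases upstream, inside the coding region, held 7 and 9. In Zfp575 a chain with its donor 70 bases upstream, ahead of the start codon, held 5 of 20 reads in replicate 1 and 5 of 11 in replicate 2, a gene named after its values were seen. In Zfp354c an unannotated chain held 6 of 14 reads in replicate 1 and 5 of 14 in replicate 2, and it had an intron ahead of the start codon, chr11:50826511-50827569, that the nearest annotated transcript lacks. Altogether 7 unannotated chains of members, in 7 genes, had at least 5 reads in each library.

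In other members the next chains were annotated in some genes and unannotated in others. In Zfp148, Zfp148-202 held 27 of 42 reads in replicate 1 and 39 of 51 in replicate 2, and the next chains were unannotated, a NIC chain with 6 and 2 reads and an NNC chain with 4 and 4. In Zfp574, Zfp574-202 held 22 of 35 and 20 of 26 reads and Zfp574-201, which also codes for 900 residues, 9 and 4. In Zfp281, a regulator of stem cells, Zfp281-201 held 14 of 25 and 16 of 22 reads and Zfp281-202, which also codes for 893 residues, 11 and 5. In Zfp24, which oligodendrocytes need to myelinate, Zfp24-201 held 17 of 26 and 27 of 35 reads and Zfp24-203, which also codes for 368 residues, 3 and 5. Zfp330-201 held 28 of 38 reads in replicate 1 and 18 of 25 in replicate 2, and Zfp513-202 23 of 30 and 31 of 33, and in both genes the next chains were unannotated, with at most 3 reads in a library. In Zfp821, Zfp821-206 held 5 of 22 reads in replicate 1 and 10 of 22 in replicate 2, an unannotated NIC chain held 4 and 7, and Zfp821-201 held 7 and 1. In Zfp511, Zfp511-201 held 9 of 22 and 12 of 22 reads and Zfp511-204 held 7 and 1. Zfp281, Zfp821 and Zfp511 were named after their values were seen.

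Counted over the 24 genes, 582 full-splice reads were outside the dominant chain. An intron kept in just one of the chains was the difference from it in 27.6 ± 1.99% of them, against 18.8 ± 0.547% in the other protein-coding genes (SD, n = 2). An internal exon present in just one of the chains was the difference in 29.6 ± 1.82%, against 27.1 ± 0.273%. Other splice sites or ends made up 40.5 ± 0.250%, against 52.4 ± 0.854%. The chains outside the dominant one numbered 280 in members, and shares of so few genes move with single genes such as Zfp692 and Zfp384.

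By position, chromosome 7 held 28 of the members and 92 of the 394 annotated genes. Chromosome 13 held 4 members of 36 annotated genes, or 11.1%, and chromosome 6 held 11 of 17, or 64.7%. Chromosome 12, with 4 of 5, and chromosomes 1 and 3, with 3 of 4 each, had higher shares of few genes. These chromosomes were named after their values were seen. None of the 9 genes on the X chromosome was a member. Another Zfp gene lay within 100 kb of 43.9% of members, against 62.6% of the 262 annotated Zfp genes under 20 reads. In RefSeq's promoter table on GRCm38.p6, from 250 bases before to 50 after the start, 107 of the 132 members were found. Their median GC content was 58.3%, against 61.8% in 6859 other protein-coding genes, and it was 54.3% in KRAB members, against 63.4% in C2H2 members without KRAB.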

How the data were processed

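The authors deposited a table of raw read counts for each library, 1 row per transcript model, and the structures of the models with their exon numbers and lengths. TALON is named in the deposited structure files, and mm10 and GENCODE M21 in the text files beside them. Aligner and platform: not given in the sources used here. Counts were summed by gene identifier over all classes, without spike-ins. Gene and exon positions are from GENCODE M21, 1-based.

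The members and gene lists were chosen with earlier results of these data known. Motifs were searched in proteins translated from GENCODE M21 coding sequences, since the RefSeq proteins the design named were not used here: C2H2 and CCCH by cysteine and histidine spacing, KRAB by a pyhmmer 0.12.3 profile of 99 stretches of 32 residues at an E-value under 0.001. Word sharing used 31 bases.

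Genes named are the 15 with the highest level, up to 4 of each motif class, those with at least 100 reads by genomic share, the 15 with the most full-splice reads, unannotated dominant chains, the 6 leading recurring unannotated chains (at least 5 reads in each library), called members, 3 examples beside the limit of 20 reads, 5 antisense loci and up to 5 leading genes of each list. Others are named as chosen later. Full-splice chains were joined across libraries by introns. Binomial and Fisher tests (scipy 1.17.1) were tested on simulated data. They take reads as independent, which is not known without molecular identifiers, so p-values may be too small, and intervals and limits for 0 (3 counts) cover counting error only. Depth is the library totals in the report. Alternatives changed the read minimum, the classes, the scaling (edgeR 4.0.16, DESeq2 1.42.0 size factors), model length, isoform rules and left out each replicate. The authors' treatment of near-identical copies is not stated there either. Reads were aligned to a C57BL/6J reference while a parent was CAST/EiJ.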

Additional observations from a re-analysis of the deposited data

Results flagged for a closer look

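Reads in antisense models, which lie on the strand opposite a gene and count in no gene level, were abundant over some Zfp genes and well above the 3 counts a level of 0 allows. They numbered 202 over Zfp207, with 104 in replicate 1 and 98 in replicate 2, all in single-exon models, beside 123 reads of the gene itself. They numbered 134 over Zfp532, with 80 and 54, and 113 over Zfp445, with 63 and 50. Zfp871 had 82, with 37 and 45, and Zfp386 67, with 39 and 28. In each of these 5 genes the antisense reads outnumbered the gene's own reads, as they did in 7 members in all, or 5.30%, against 4.69% of the other protein-coding genes. The 5 genes held 598 of the members' 1335 antisense reads. Over all members there were 18.8 antisense reads per 100 gene reads, and 10.8 in the 127 members without these 5, against 11.5 in the other protein-coding genes. The median per gene was 2 antisense reads in members, against 3. At least 1 such read was found over 69.7% of members, against 71.2%.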

How the results depend on the processing

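The number of members follows the read minimum: 212 at 10 reads, 38 at 50, 52 without replicate 1 and 65 without replicate 2. It was 126 with symbols that end in digits, 109 when genomic reads were left out and 97 on full-splice reads only. The median level of 23.3 CPM became 20.0 CPM when genomic models were left out and 16.1 CPM when Known, NIC and NNC models were counted alone, and 23.5 and 23.0 CPM without replicate 1 and 2. The genomic share of 12.7% became 11.1% with models of at least 200 bases and 14.8% without Zfp706 and Zfp365, an alternative chosen after seeing the data. The level of Zfp746, 61.2 CPM, was 28.9 CPM without models of 1 base, also chosen after seeing the data. Without a replicate the genomic share was 12.4% to 13.0%. The number of members with more than 1 isoform was 10 of 24; it was 40 of 76 at 10 full-splice reads, 16 at a 5% share, 5 of 16 with annotated models alone, and 19 of 31 and 25 of 36 without replicate 1 and 2. The library comparison called 0 members at 10 reads, with no filter, with no limit on the fold, with TMM or DESeq2 size factors, when genomic models were dropped and on full-splice reads only; the smallest adjusted p was 0.156 to 0.355. It cannot be run with a library left out. The 3 calls of genomic share, Zfp365, Zfp574 and Zfp956, were also called with models of at least 200 bases. No paired analysis was possible because there is 1 group. With 20 reads in a gene, shares and folds are limited by counting error.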
